A study of Mus musculus with 12 samples.

Results

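The genes described here are 7 matrix metalloproteinases (Mmp2, Mmp8, Mmp9, Mmp13, Mmp14, Mmp15 and Mmp19) and the 3 tissue inhibitors of metalloproteinases Timp1, Timp2 and Timp3, in mouse liver. They were taken as every array probe that bears one of these gene names in the scanner tables, which gave 14 probes for the 10 genes, among 41174 probes on the array apart from controls. Mmp12 was left out. Liver RNA of 12 male C57BL/6 mice was measured, with 1 array per mouse, on 1-colour arrays on which the brightness of a 60-base probe reports the abundance of its transcript. The 4 groups of 3 mice, biological replicates per the labels, were SIRT1+/- mice (Het) on a high-fat diet, SIRT1+/+ mice (WT) on a high-fat diet, Het mice on a low-fat diet and WT mice on a low-fat diet, each kept on its diet for 34 weeks. The sources used here do not give which part of Sirt1 the Het allele lacks.

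Matrix metalloproteinases are zinc-dependent enzymes that cut collagens and other proteins of the extracellular matrix. Most are made as inactive precursors and activated by other proteases, and the TIMPs bind the active site and block it. In the liver the matrix around sinusoids is laid down mainly by stellate cells, and both the enzymes and their inhibitors come largely from stellate cells, macrophages, endothelial cells and recruited leukocytes, with a part from hepatocytes. Timp1 is widely followed in fibrotic liver.

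Sirt1, the gene that differs by genotype, was lower in Het livers within each diet on both of its probes, with no overlap with WT. The share of all probes that separated in this way by genotype was not counted. On the first probe its log2 level ran from -1.69 to -1.59 in Het and from -1.14 to -0.81 in WT livers with high fat, and with low fat from -1.18 to -1.12 in Het and from -0.69 to -0.31 in WT livers. Over both diets the limma difference was -0.64 ± 0.09 on this probe (adjusted p = 0.355) and -0.44 ± 0.09 on the other (adjusted p = 0.935). The share of spots well above background lay between 58.0% and 71.6%, and precision is limited by the number of arrays. The high-fat arrays share a scan day and the low-fat arrays share a different one, with no slide in common, so the effect of diet below cannot be told apart from that of scan day or slide. All 12 hepatocyte marker probes, for 9 of 10 genes, were well above background on every array.

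A level below is the log2 of the processed intensity relative to the 75th percentile of its array, and a probe's level has no meaning against that of another probe. Differences were fitted with limma over all 4 groups, and adjusted p is the Benjamini-Hochberg value over the 25296 probes that exceeded the background clearly in every mouse of 1 group or more. A probe is said to have risen or fallen where its adjusted p was under 0.05. Of the 14 probes 13 were tested, 8 of them well above background on all 12 arrays. The other 5, those for Mmp8 and Mmp13, 1 of Mmp9 and 2 of Timp1, passed the filter only through a high-fat group, so a count of rises over the 13 is in part set by the filter. The same holds where high-fat values of these 5 stand above their low-fat values.

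Timp1 was measured by 3 probes that gave different answers, so their sequences are shown here, 5′ to 3′, on the plus strand of chromosome X with the coordinates of the array design on mouse build mm7. All 3 are named for the same transcript, NM_011593. In each, 1 of the 3 forward frames of its 60 bases holds no stop codon, and a match to the Timp1 protein was not tested. The upstream probe, A_51_P512384, lies at chrX:19305929-19305988. The middle probe, A_51_P512379, begins at the next base, at chrX:19305989-19306238, so that its 60 bases are placed over 250 bases of the genome. The downstream probe, A_52_P87713, lies 1460 bases further on, at chrX:19307699-19307758. An exon annotation on mm7 was not used here.
Timp1 upstream probe: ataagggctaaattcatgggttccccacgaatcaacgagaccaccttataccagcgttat
Timp1 middle probe: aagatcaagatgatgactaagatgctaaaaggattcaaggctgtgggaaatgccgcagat
Timp1 downstream probe: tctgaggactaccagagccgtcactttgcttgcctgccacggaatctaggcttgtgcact

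On the high-fat diet the collagenase Mmp13 and the upstream and middle probes of Timp1 were higher in each genotype. The inhibitors Timp2 and Timp3 were higher in Het livers and over both genotypes, and Mmp2 and Mmp8 over both genotypes. No member probe fell with diet in either genotype. Mmp14, Mmp15, Mmp19, the tested Mmp9 probe and the downstream Timp1 probe did not pass the test in any diet comparison. In Het livers 5 of the 13 tested probes, of 4 genes, rose with the high-fat diet, where 6.79% of all tested probes rose and 8.01% fell. For WT livers the count was 3 of 13, of 2 genes, where 2.42% of all rose and 3.27% fell. Over both genotypes it was 7 of 13, of 6 genes, where 12.3% of all rose and 17.1% fell. Among the 8 probes that were well above background on all arrays, tested with the other probes of that kind, 3 rose over both genotypes (Mmp2, Timp2 and Timp3), where 12.9% of such probes rose. Of the same 8, 2 rose in Het livers, against 7.24%, and 0 in WT livers, against 2.93%. The median difference of these 8 was 0.30 in Het, 0.15 in WT and 0.23 over both, where that of all 22287 probes above background on every array was -0.02, -0.05 and -0.04. In liver RNA, more cells of a type and more RNA per cell cannot be told apart.

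**Figure D1:**
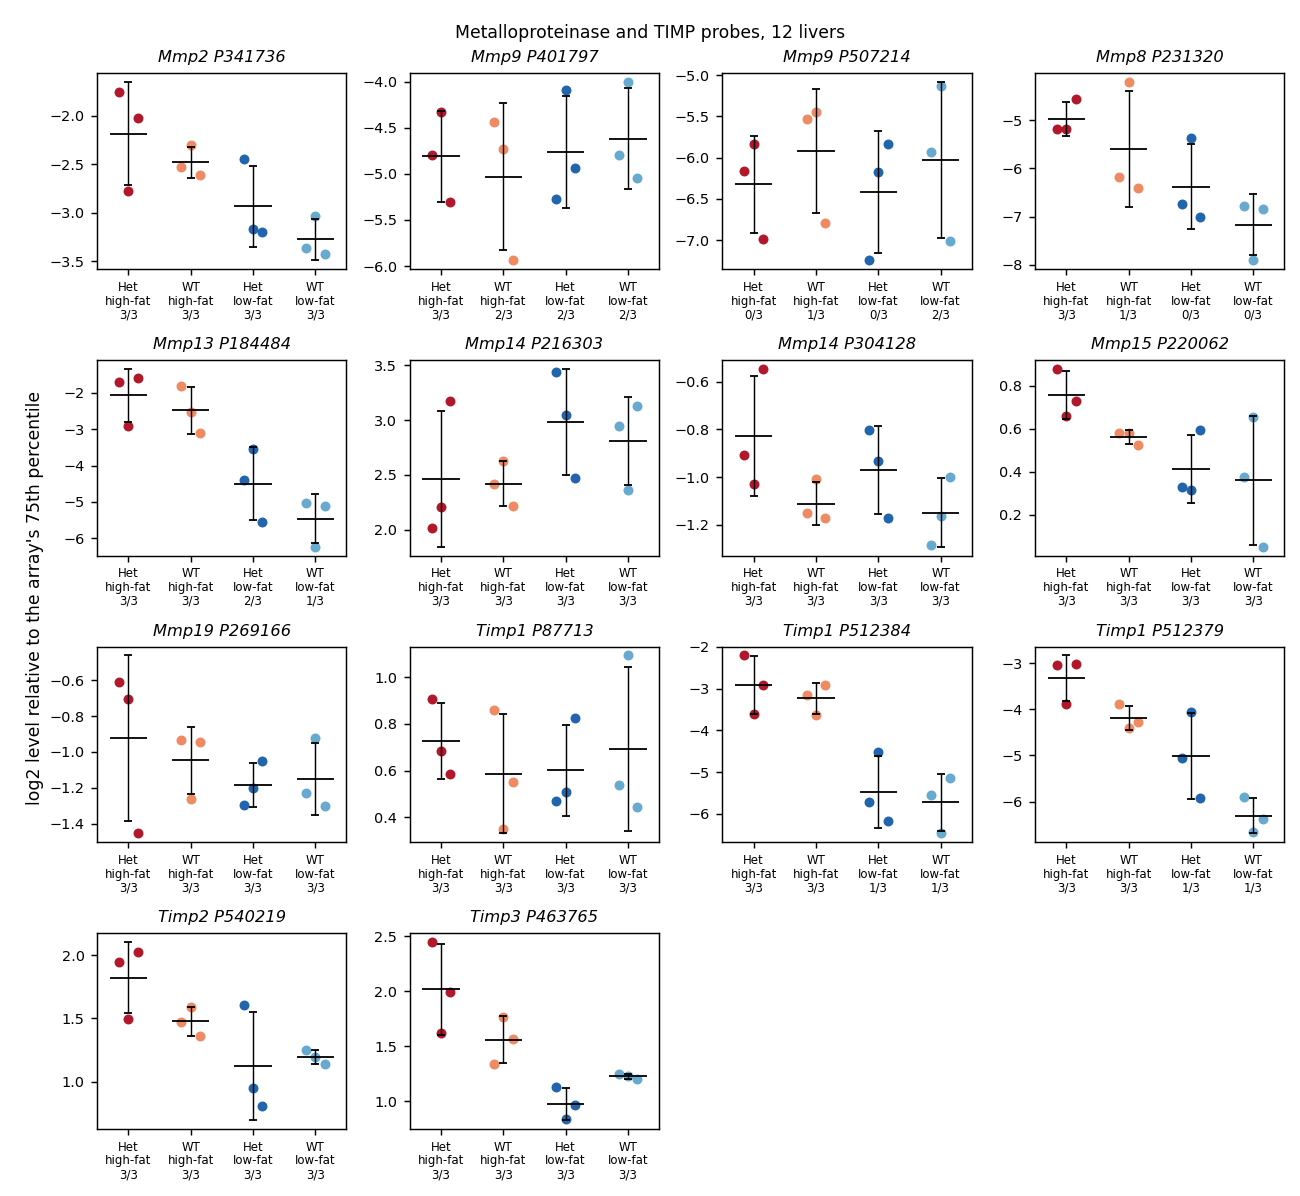
Level of each of the 14 probes on the 12 arrays, as log2 relative to the array's 75th percentile, with each probe on its own axis. Points are mice, bars the group mean and SD of 3, and the fraction under each group counts its arrays on which the probe was well above background. Mmp13, the upstream Timp1 probe (P512384) and Timp3 show every high-fat array above every low-fat array, as do 5.38% of tested probes. Mmp13 and the upstream Timp1 probe passed the filter only through high-fat groups, so their separation is in part set by the filter.

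Mmp13 encodes collagenase 3, the main interstitial collagenase of rodents, which cuts fibrillar collagen. Its probe lies at chr9:7280046-7280105 on mm7, on the plus strand like every member probe but that of Timp2. Its log2 level was -1.71, -2.91 and -1.59 in Het high-fat livers and -1.81, -2.53 and -3.09 in WT high-fat livers, against -4.40, -3.54 and -5.55 in Het low-fat livers and -5.02, -6.23 and -5.12 in WT low-fat livers. All 6 high-fat livers stood above all 6 low-fat livers, as was so for 5.38% of tested probes. The probe passed the filter only through high-fat groups, so this separation is in part set by the filter. The high-fat minus low-fat difference was 2.42 ± 0.55 (SE) on the log2 scale in Het livers (limma adjusted p = 0.0181) and 2.98 ± 0.55 in WT livers (adjusted p = 0.0198), and 2.70 ± 0.39 over both (adjusted p = 0.00118). The probe was well above background on 6 of 6 high-fat arrays and on 3 of 6 low-fat arrays, so the low-fat levels lie close to background. With background corrected by normexp instead, the difference over both genotypes was 1.71. The call over both genotypes held whichever array was left out. That in Het was lost without high-fat replicate 1 or 3 or low-fat replicate 1 or 3 (adjusted p up to 0.0744), and that in WT without high-fat replicate 1 or 2 (up to 0.0613).

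The upstream 250 bases of Mmp13 are shown because they hold a consensus AP-1 site, the kind of element through which growth factors and cytokines are known to act on collagenase genes. They are chr9:7272264-7272513, plus strand, of the GRCm38.p6 build, from RefSeq. The capitals mark the match to TGANTCA, which begins 35 bases before the annotated start. A TATAAA match lies 16 bases before it.
Mmp13 upstream bases: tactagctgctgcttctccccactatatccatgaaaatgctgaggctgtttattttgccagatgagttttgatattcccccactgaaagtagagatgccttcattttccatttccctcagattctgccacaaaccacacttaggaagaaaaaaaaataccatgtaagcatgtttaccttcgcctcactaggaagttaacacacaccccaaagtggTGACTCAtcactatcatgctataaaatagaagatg
A variant of this element, TGAGTAA, was found just after the annotated start of Timp1, and the 30 bases around it, chrX:20870181-20870210 on the plus strand of GRCm38.p6, are given with the match in capitals.
Timp1 stretch: cggtgggtggaTGAGTAAtgcgtccaggaa
Windows of 250 bases before to 50 bases after the start were at hand for 7 of the 10 genes, Mmp8, Mmp13, Mmp14, Mmp15, Timp1, Timp2 and Timp3. Searched on both strands, TGANTCA matched the window of Mmp13 among these 7, and TGAGTAA that of Timp1. Of 32851 such windows of 300 bases, 7.81% held TGANTCA, 2.68% TGAGTAA and 13.6% TATAAA, which here matched Mmp8 and Mmp13. No stretch can match both TGANTCA and TGAGTAA. A match describes letters only, and binding was not measured.

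Mmp8, the collagenase that neutrophils store in their granules, was close to background. Its probe lies at chr9:7566361-7566420. Its log2 level was -5.18, -5.18 and -4.57 in Het high-fat livers and -6.18, -4.21 and -6.40 in WT high-fat livers, against -6.75, -5.37 and -7.01 in Het low-fat livers and -6.78, -7.91 and -6.84 in WT low-fat livers. Within each genotype the high-fat and low-fat livers did not overlap, as was so in this direction for 16.6% of tested probes in Het and 11.5% in WT. The probe passed the filter only through the Het high-fat group, so this separation is in part set by the filter. The probe was well above background on all 3 Het high-fat arrays, 1 of 3 WT high-fat arrays and 0 of 6 low-fat arrays, so only a bound can be given, and for WT livers, with 1 array measured, no fold is given. Against the higher of each low-fat array's own value and its lowest signal well above background, Mmp8 was at least 1.23-fold higher with the high-fat diet in Het livers. The adjusted p was 0.0215 over both genotypes, 0.126 in Het and 0.125 in WT livers. Without Het low-fat replicate 1 the adjusted p over both genotypes was 0.0529.

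The mean level of neutrophil markers is set here beside the level of Mmp8, and how closely they moved together was not tested. Of 11 tested neutrophil marker probes, for 9 of 12 listed genes, 4 rose over both genotypes and 1 fell, where 12.3% of all probes rose and 17.1% fell. Only 4 of the 11 were well above background on all arrays, so this count may also be set in part by the filter. The antimicrobial peptide gene Camp rose by 2.40 ± 0.81, the lipocalin Lcn2 by 2.19 ± 0.41, the lactoferrin gene Ltf on 1 of its probes by 1.91 ± 0.53 and the myeloperoxidase gene Mpo by 1.61 ± 0.49, while the receptor gene Csf3r fell by 0.73 ± 0.15. S100a8, S100a9, Retnlg, both Cxcr2 probes and the other Ltf probe did not pass. The high-fat minus low-fat differences of the Cxcr2 probes were -0.47 and -0.88 in WT livers and 1.02 and 0.55 in Het livers. Elane, Ly6g and Ngp were not tested. The mean of the 11 probes, centred on the 12 arrays, was 0.67, 0.51 and 0.82 in Het high-fat livers and -0.08, 1.75 and -0.61 in WT high-fat livers, against -0.49, 0.41 and -0.99 in Het low-fat livers and -0.52, -0.91 and -0.57 in WT low-fat livers. WT high-fat replicate 2 was the highest array in both Mmp8 and these markers, and Het low-fat replicate 2 was the highest low-fat array in both. Mmp8 was well above background on 0 low-fat arrays, so its order among them is one of values near background. The part of neutrophil content in the Mmp8 values was not tested.

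**Figure D2:**
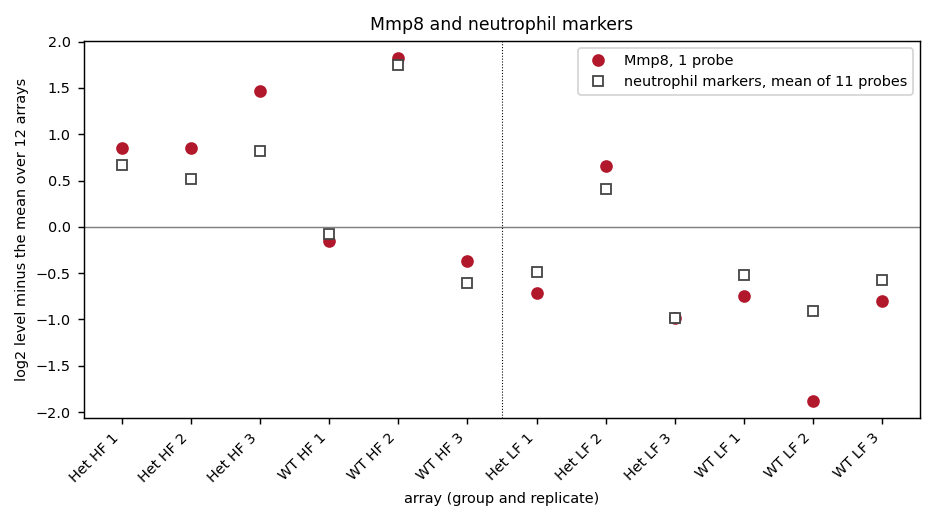
Level of the Mmp8 probe and mean level of 11 neutrophil marker probes on the 12 arrays, each as log2 minus its mean over the arrays, with high-fat arrays left of the dotted line. WT high-fat replicate 2 is the highest array in both, at 1.75 for the markers.

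The gelatinases Mmp2 and Mmp9 cut denatured collagen and the type IV collagen of basement membranes. Mmp2, whose probe lies at chr8:91446191-91446250, was higher on the high-fat diet. Its log2 level was -1.75, -2.78 and -2.02 in Het high-fat livers and -2.53, -2.30 and -2.61 in WT high-fat livers, against -2.45, -3.16 and -3.19 in Het low-fat livers and -3.37, -3.03 and -3.43 in WT low-fat livers. In WT the 2 diets did not overlap, as was so in this direction for 11.5% of tested probes. In Het the high-fat replicate 2 lay below the low-fat replicate 1. The difference was 0.75 ± 0.27 in Het (adjusted p = 0.0833) and 0.80 ± 0.27 in WT livers (adjusted p = 0.100). Over both genotypes it was 0.77 ± 0.19, or 1.71-fold (adjusted p = 0.0131).

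Mmp9, the gelatinase of neutrophils and macrophages, had 2 probes and passed the test on neither. The probe A_51_P401797, at chr2:164695457-164695516, had a log2 level of -4.79, -4.33 and -5.31 in Het high-fat livers and -4.43, -4.73 and -5.94 in WT high-fat livers, against -5.27, -4.09 and -4.94 in Het low-fat livers and -4.80, -4.01 and -5.05 in WT low-fat livers. The groups overlapped throughout, and the diet difference over both genotypes was -0.23 ± 0.31, with a 95% interval from -0.92 to 0.46. Its sign turned to 0.070 with normexp correction. The second probe, A_52_P507214, at chr2:164695774-164695833, is printed at 10 spots on each array and was not tested, since it was well above background in no group throughout. Of its 60 high-fat spots 16 were well above background, and of its 60 low-fat spots 22. The SD between its 10 single spots had a median of 0.55 per array.

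Mmp14, Mmp15 and Mmp19 did not pass the test for diet. Mmp14 and Mmp15 are anchored in the cell membrane, and Mmp14 activates the Mmp2 precursor. The Mmp14 probe A_51_P216303, at chr14:49308207-49308266, had a log2 level of 2.02, 2.20 and 3.17 in Het high-fat livers and 2.42, 2.63 and 2.22 in WT high-fat livers, against 3.44, 3.04 and 2.48 in Het low-fat livers and 2.94, 2.36 and 3.13 in WT low-fat livers. Its groups overlapped, with a difference over both genotypes of -0.46 ± 0.23 (adjusted p = 0.161). The other Mmp14 probe, A_52_P304128, at chr14:49307013-49307072, lay between -1.17 and -0.55 in high-fat livers and between -1.28 and -0.80 in low-fat livers and differed by 0.09 ± 0.11 (95% interval -0.15 to 0.33). The diet differences of these 2 probes of 1 transcript lay 0.55 apart on the log2 scale.

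Mmp15 had a log2 level of 0.88, 0.66 and 0.73 in Het high-fat livers and 0.58, 0.58 and 0.52 in WT high-fat livers, against 0.33, 0.32 and 0.60 in Het low-fat livers and 0.37, 0.65 and 0.05 in WT low-fat livers. In Het the diets did not overlap, as was so in this direction for 16.6% of tested probes. The difference there, 0.34 ± 0.16, had a limma adjusted p of 0.155, and over both genotypes it was 0.27 ± 0.11 (adjusted p = 0.0841). Mmp19, a soluble metalloproteinase, lay between -1.46 and -0.61 in high-fat and between -1.30 and -0.92 in low-fat livers. Its difference of 0.18 ± 0.15 over both genotypes had a 95% interval from -0.15 to 0.52. The Mmp15 probe lies at chr8:93962875-93962934 and the Mmp19 probe at chr10:128300933-128300992.

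**Figure D3:**
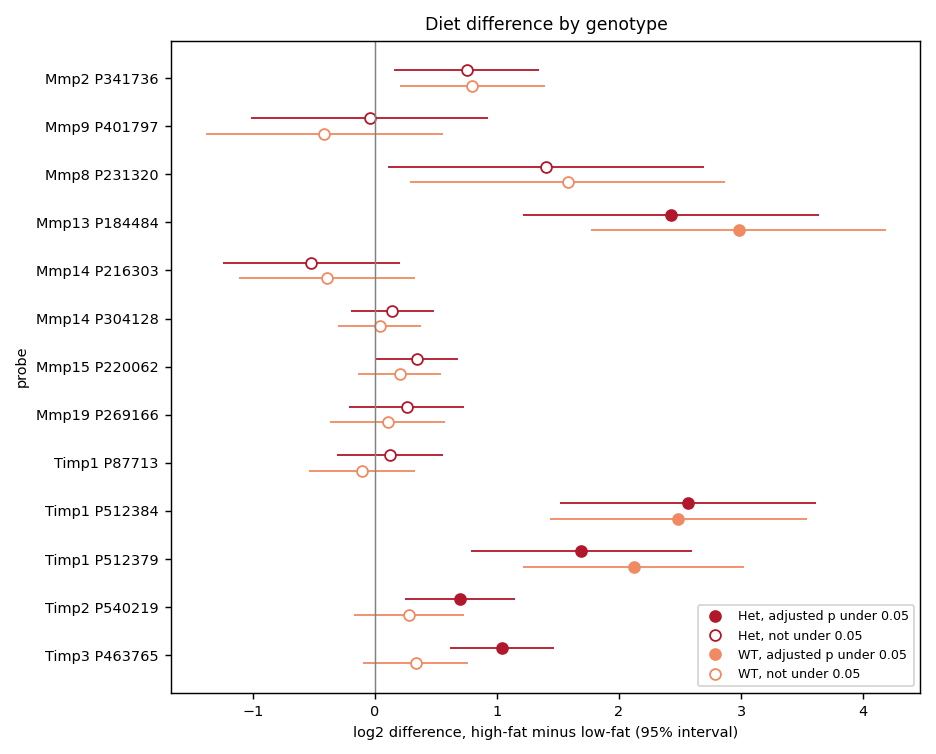
High-fat minus low-fat difference of the 13 tested probes on the log2 scale, in Het livers and in WT livers, with 95% intervals. Filled points have an adjusted p under 0.05. The Mmp13 probe and the upstream and middle Timp1 probes lie furthest to the right, and Timp2 and Timp3 passed in Het livers.

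Timp1 encodes a secreted inhibitor of most soluble metalloproteinases. On its upstream probe the log2 level was -2.21, -3.60 and -2.91 in Het high-fat livers and -3.16, -3.63 and -2.92 in WT high-fat livers, against -5.71, -4.53 and -6.18 in Het low-fat livers and -5.55, -6.47 and -5.15 in WT low-fat livers. Every high-fat liver stood above every low-fat liver, as was so for 5.38% of tested probes. The upstream probe passed the filter only through high-fat groups, so this separation is in part set by the filter. The difference was 2.57 ± 0.48 in Het (adjusted p = 0.00901), 2.49 ± 0.48 in WT (adjusted p = 0.0216) and 2.53 ± 0.34 over both genotypes (adjusted p = 0.000888). The middle probe stood at -3.05, -3.89 and -3.03 in Het high-fat livers and at -3.90, -4.40 and -4.28 in WT high-fat livers, against -5.06, -4.06 and -5.92 in Het low-fat livers and -5.91, -6.66 and -6.37 in WT low-fat livers. Here Het low-fat replicate 2 lay among the high-fat values. The middle probe rose by 1.69 ± 0.41 in Het, 2.12 ± 0.41 in WT and 1.90 ± 0.29 over both genotypes. The call of the upstream probe in WT was lost without replicate 1 or 3 of the high-fat group or replicate 1 of the low-fat group (adjusted p up to 0.0701). The middle probe lost its call in WT without any high-fat replicate or without low-fat replicate 1 or 3 (up to 0.0669), and in Het without high-fat or low-fat replicate 1 or 3 (up to 0.0893). Calls of both probes over both genotypes held whichever array was left out. With normexp correction the differences over both genotypes were 1.45 for the upstream and 0.92 for the middle probe, and that of the upstream probe in WT was 1.33.

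The downstream Timp1 probe did not pass the test. Its log2 level was 0.91, 0.68 and 0.59 in Het high-fat livers and 0.86, 0.35 and 0.55 in WT high-fat livers, against 0.47, 0.51 and 0.83 in Het low-fat livers and 0.54, 1.09 and 0.44 in WT low-fat livers. The diets overlapped in both genotypes, and the difference over both was 0.01 ± 0.14 with a 95% interval from -0.30 to 0.32 (adjusted p = 0.963). Its processed intensity was 1684 to 2453 on high-fat and 2429 to 2849 on low-fat arrays, well above background on all 12. The upstream probe had 89.5 to 217 on high-fat and 13.4 to 87.1 on low-fat arrays and was well above background on 6 of 6 and 2 of 6 of them. The middle probe had 59.2 to 200.1 and 11.7 to 121, above background on the same numbers of arrays.

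The Timp1 probes were compared with one another on the same arrays. In an exact two-sided permutation test of diet within genotype, the diet difference of the upstream probe exceeded that of the downstream probe by 2.52 on the log2 scale (p = 0.005, as low as 400 arrangements allow, adjusted p = 0.02 over 4 probe pairs). The middle probe exceeded the downstream probe by 1.89 (exact p = 0.01, adjusted p = 0.02), and the upstream probe exceeded the middle one by 0.62 (exact p = 0.03, adjusted p = 0.03). For Mmp14 the A_51 probe's diet difference was lower than the A_52 probe's by 0.55 (exact p = 0.03, adjusted p = 0.03). These pairs were chosen after their values were seen, so their p-values cannot decide whether the probes differ. The upstream and middle Timp1 probes also passed the filter only through the high-fat groups. Each was well above background on 2 of 6 low-fat arrays. With normexp correction the 3 Timp1 gaps were 1.37, 0.84 and 0.53 and the Mmp14 gap was -0.54. Where 1 probe per gene was kept, the one of highest mean signal, Timp1 was represented by its downstream probe and no rise was called. Which of the probes reports the Timp1 transcript was not tested.

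**Figure D4:**
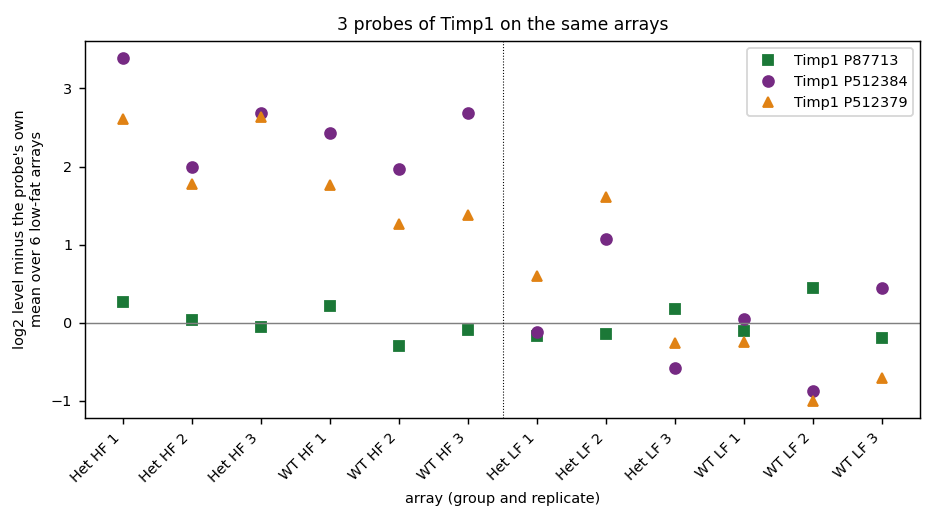
The 3 Timp1 probes on the 12 arrays, as log2 level minus the probe's own mean over the 6 low-fat arrays, with high-fat arrays left of the dotted line. The upstream (P512384) and middle (P512379) probes stand above 0 on all 6 high-fat arrays, while the downstream probe (P87713) stays close to 0.

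Timp2, which takes part in the activation of the Mmp2 precursor by Mmp14, was measured by 1 probe at chr11:118410877-118410936 on the minus strand. Its log2 level was 1.94, 1.50 and 2.02 in Het high-fat livers and 1.47, 1.59 and 1.36 in WT high-fat livers, against 1.61, 0.95 and 0.81 in Het low-fat livers and 1.25, 1.20 and 1.14 in WT low-fat livers. Het low-fat replicate 1 lay inside the high-fat range. The difference was 0.70 ± 0.21 in Het (adjusted p = 0.0442), 0.28 ± 0.21 in WT (adjusted p = 0.409) and 0.49 ± 0.15 over both (adjusted p = 0.0279). The call in Het was lost in 14 of 22 alternatives, with adjusted p up to 0.143, and the one over both genotypes in 8 of 21, with adjusted p up to 0.0653. Leaving out 1 array ended the first in 10 of 12 cases, all but Het high-fat replicate 2 and Het low-fat replicate 1. It ended the second in 7 of 12, without replicate 1 or 2 of WT high-fat, 1 or 3 of Het high-fat, 2 or 3 of Het low-fat or 3 of WT low-fat livers.

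Timp3 encodes a matrix-bound inhibitor that also acts on ADAM proteases. Its probe, at chr10:85907162-85907221, had a log2 level of 2.45, 1.62 and 1.99 in Het high-fat livers and 1.34, 1.77 and 1.56 in WT high-fat livers, against 1.13, 0.83 and 0.96 in Het low-fat livers and 1.24, 1.23 and 1.20 in WT low-fat livers. All high-fat livers stood above all low-fat livers, as was so for 5.38% of tested probes. The rise was 1.04 ± 0.19 in Het (adjusted p = 0.00902) and 0.69 ± 0.14, or 1.61-fold, over both genotypes (adjusted p = 0.00515), while the value in WT was 0.33 ± 0.19 (adjusted p = 0.301). The test of the difference between the genotypes' diet responses gave 0.71 ± 0.27, with an unadjusted p of 0.0252 and a limma adjusted p of 0.884, so a larger response in Het was not shown.

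No member passed the test for genotype. In Het against WT livers the 13 probes differed by 0.04 to 0.87 in mice fed high fat, by -0.25 to 1.30 in those fed low fat and by 0.03 to 1.09 over both diets, and 0 passed in limma, as did 0 of all 25296 probes (0%). The interaction of genotype and diet ran from -0.55 to 0.71 and likewise had 0 calls (0%). At an unadjusted p under 0.05, 1 of the 13 passed in each of these 4 comparisons, where 2288 of all probes did with high fat, 582 with low fat, 1300 over both and 1343 in the interaction. The middle Timp1 probe was the one with low fat and over both diets, at 1.30 ± 0.41 and 1.09 ± 0.29 (unadjusted p = 0.00901 and 0.00329, adjusted p = 0.935 over both diets). This probe was well above background on 1 of 3 arrays in each low-fat group, so its low-fat genotype difference lies mostly between values near background. On the upstream probe of Timp1 the genotype difference over both diets was 0.29 ± 0.34. Timp3 was the one on the high-fat diet, at 0.46 ± 0.19 (unadjusted p = 0.0369, adjusted p = 0.526), and also in the interaction. Within the slides that held both genotypes the middle Timp1 probe differed by 0.96 on the high-fat slide (3 Het arrays and 1 WT array). On the low-fat slide (1 Het array and 3 WT arrays) it differed by 1.25. On the same slides the upstream Timp1 probe differed by 0.010 and 0.0089, and Timp3 by 0.45 and -0.10.

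Other genes of extracellular proteolysis were taken from 4 lists. Of the remaining metalloproteinases and Timp4, 6 of 16 genes were tested by 8 probes, of which 3 rose over both genotypes and 0 fell, where 12.3% of all tested probes rose and 17.1% fell. They were Mmp23 (1.23 ± 0.20) and 1 probe each of the membrane-type genes Mmp24 (1.39 ± 0.31) and Mmp17 (1.07 ± 0.25). The second probe of Mmp24 gave 0.19 ± 0.30 and that of Mmp17 -0.19 ± 0.14, so these 2 genes, like Timp1, depended on the probe. The median of the 8 probes was 0.16. In Het livers 2 of these 8 rose, against 6.79% of all, and in WT livers 1 did, against 2.42%.

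The plasminogen system, whose protease plasmin activates several metalloproteinase precursors, rose with the high-fat diet on 6 of 12 tested probes and fell on 1, over both genotypes, against 12.3% and 17.1% of all probes. Plaur, the receptor of urokinase, rose by 1.27 ± 0.15 and 1.06 ± 0.15 on its 2 probes. Plat, the tissue plasminogen activator, rose by 1.74 ± 0.27 and 1.21 ± 0.24, and Plau, urokinase itself, by 0.97 ± 0.22. The plasminogen receptor Plgrkt rose by 0.43 ± 0.10, while Serpine2, an inhibitor of both activators, fell by 1.53 ± 0.22 on the log2 scale. The plasminogen gene Plg stood at -0.24 ± 0.14 and -0.22 ± 0.15 on its 2 probes and did not pass. Within genotypes 6 probes rose and 1 fell in Het livers (6.79% and 8.01% of all), and 3 rose and 1 fell in WT livers (2.42% and 3.27% of all). The median of the 12 was 0.25.

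Among activators, inhibitors and binding partners of metalloproteinases, 5 of 15 probes rose and 4 fell over both genotypes, against 12.3% and 17.1% of all probes, with a median of 0.11. Lcn2, whose product binds Mmp9 and which is also on the neutrophil list, rose by 2.19 ± 0.41. The matrix proteins Thbs1, Thbs2 and Sparc rose by 1.45 ± 0.34, 0.86 ± 0.21 and, on 2 probes, 0.64 ± 0.12 and 0.58 ± 0.15. Reck, a membrane-anchored inhibitor of Mmp2, Mmp9 and Mmp14, fell by 1.01 ± 0.18. Furin, a convertase that activates membrane-type enzymes, fell by 0.93 ± 0.19 on 1 probe and stood at 0.07 ± 0.13 on the other. Of 22 probes for ADAM and ADAMTS proteases 8 rose and 0 fell, against the same shares, with a median of 0.31. They included the leukocyte protease Adam8 (1.67 ± 0.30), the aggrecanases Adamts4 (1.43 ± 0.25) and Adamts15 (0.71 ± 0.14), and, on 2 of its 3 probes, the procollagen protease Adamts2 (0.70 ± 0.19 and 0.65 ± 0.18, with 0.50 ± 0.27 on the third). Adamts1 and Adam15 rose on 1 probe each, by 0.65 ± 0.12 and 0.49 ± 0.10, and gave 0.36 ± 0.15 and 0.26 ± 0.21 on the other, which did not pass. None of the 4 lists had a call between genotypes.

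**Figure D5:**
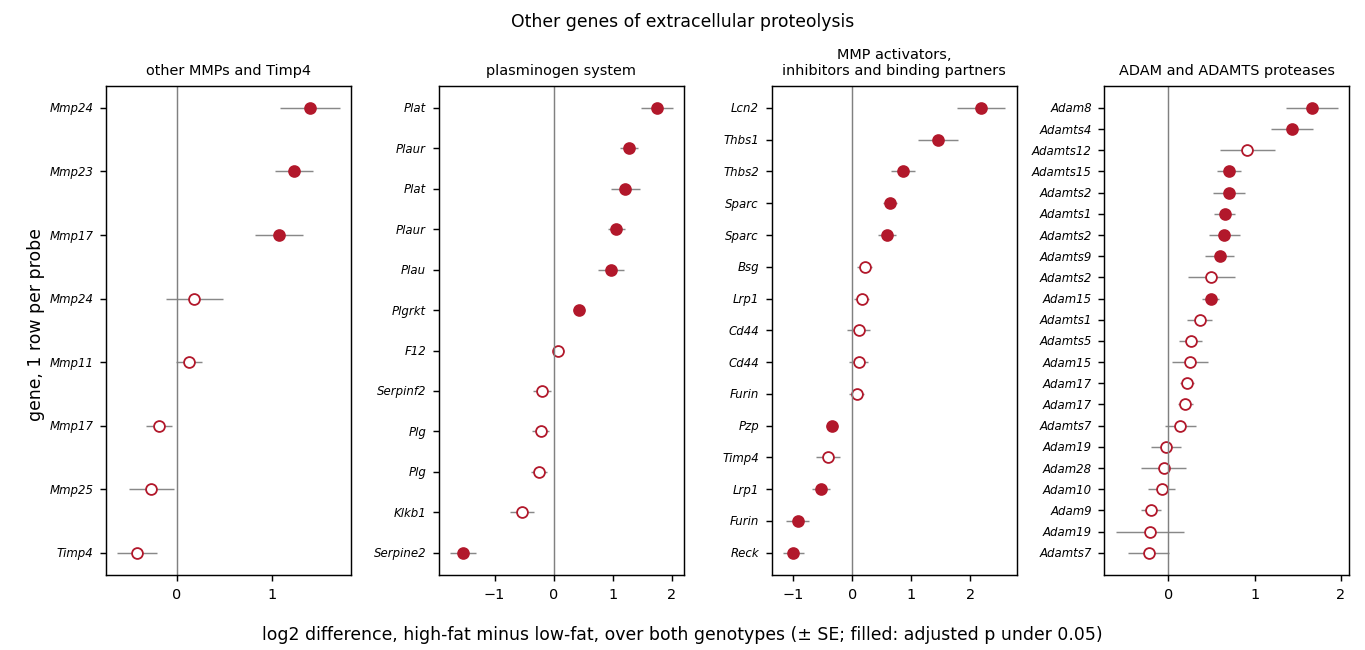
High-fat minus low-fat difference over both genotypes, on the log2 scale with SE bars, for the tested probes of 4 lists of proteolysis genes, with 1 line per probe. Filled points have an adjusted p under 0.05. Lcn2 reaches 2.19 and Serpine2 lies at -1.53, and Timp4 belongs to 2 of the lists.

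Some markers of the cells that make these proteins moved with diet too. Of 18 stellate cell marker probes 9 rose over both genotypes and 0 fell, where 12.3% of all probes rose and 17.1% fell, led by the collagen gene Col1a1 on a probe with 2.07 ± 0.34, while the defining markers Lrat, Reln, Hand2 and Lhx2 did not pass, at -0.40 to 0.07. The mean of the 18, centred on the 12 arrays, was 0.03 to 0.79 in Het and 0.09 to 0.24 in WT high-fat livers, against -0.62 to -0.01 in Het and -0.49 to -0.34 in WT low-fat livers. For macrophages 5 of 18 probes rose and 1 fell, against the same shares of all probes. Those that rose included Trem2 (2.32 ± 0.30 and 2.01 ± 0.29) and Cd68 (0.61 ± 0.14). The Kupffer cell marker Timd4 fell by 1.72 ± 0.44. Adgre1, Csf1r, Lyz2, Clec4f, Vsig4, Cd5l and Marco had no call within either genotype. The mean of the 18 macrophage probes ran from -0.23 to 0.42 in Het and from 0.09 to 0.38 in WT high-fat livers, against -0.51 to 0.32 in Het and -0.31 to 0.00 in WT low-fat livers. Of 11 cholangiocyte marker probes 5 rose and 0 fell, and of 17 endothelial probes 3 rose and 4 fell, against the same shares of all probes. Of 12 hepatocyte marker probes 0 rose and 3 fell, where 12.3% of all probes rose and 17.1% fell. The part of these cell markers in the member values was not tested.

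Likeness of pattern was measured as the root mean square difference between log2 levels centred on their own mean over the 12 arrays, against 22277 probes of other genes. All probes share the same 12 arrays and slides, so the values are a description. For Mmp2 the most alike probes were those of Gsn (0.15), Htra1 (0.16) and Ptpn13 (0.18), where the median probe stood at 0.58. For Mmp13 they were 2 probes of Smpd3 (0.42 and 0.45) and Uap1l1 (0.44), with a median of 1.57. Mmp8 was nearest to the acute phase gene Saa3 (0.42), the neutrophil gene S100a9 (0.45) and Bex1 (0.45), with a median of 1.11. The upstream Timp1 probe was nearest to 2 probes of Nrg1 (0.30 and 0.31) and to Uap1l1 (0.33), with a median of 1.42. Nearest to Timp2 were Hspb2 (0.13), Pklr (0.14) and Ahnak (0.16), and to Timp3 Pakap (0.18), Plp2 (0.18) and Golm1 (0.19), with medians of 0.44 and 0.51.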

How the data were processed

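Liver RNA of 12 mice was measured on Agilent arrays read with Feature Extraction 9.5, per the submitters' processing notes. The deposited processed intensity is spot brightness with the background subtracted, per the file headers, and the deposited flags of 0 or 1 mark spots well above background or outlying, another measure without a unit. The deposited table of the series held the same intensity values as the scanner tables at every spot. The log2 of the processed intensity minus the log2 of the array's 75th percentile was used. Control spots and 1344 outlier spots were left out, and spots of a probe were averaged. Probes were tested where they were measured in at least 2 mice per group and were well above background throughout 1 group or more.

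Differences came from limma 3.58.1 in R 4.3.3, with means of 4 groups, 8 residual and 2.99 prior degrees of freedom, two-sided moderated tests and Benjamini-Hochberg adjustment at 0.05. The 7 comparisons were diet in each genotype and over both, genotype on each diet and over both, and their interaction. The fit was run on simulated data with independent noise, which held no effect of slide, scan day or background. Members and lists were chosen with earlier results of these data known. Every member probe is accounted for. A gene of the plasminogen list is not reported here. From each list up to 6 called genes of lowest p are named, the other probes of these genes and the marker genes being added after their values were seen, and for likeness the 3 nearest probes with a RefSeq symbol. Same-numbered replicates did not deviate together, with correlations between -0.47 and 0.11, so no pairing was used. Alternatives were normexp correction (offset 50), quantile and median scaling, 2 other filters, outlier spots kept, 1 probe per gene, the compared groups alone, replicate or slide as a block, and leaving out each array.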

Additional observations from a re-analysis of the deposited data

How the results depend on the processing

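Calls over both genotypes for Mmp2, Mmp13, the upstream and middle Timp1 probes and Timp3, and those in Het for the upstream Timp1 probe and Timp3, held under every alternative in which the probe was tested. The count of member probes that rose with diet in WT, 3 as reported, was 0 without the filter, 0 with probes well above background on all arrays, 1 with 1 probe per gene, 5 with slide as a random block (a fit with an estimated correlation of -0.18 between arrays of a slide) and 0 to 3 when 1 array was left out (0 without WT high-fat replicate 1, 1 without WT high-fat replicate 2 or 3 or WT low-fat replicate 1). In Het, 5 as reported, it was 3 without the filter, 2 with the stricter filter, 3 with 1 probe per gene, 3 with the compared groups alone and 2 to 6 when 1 array was left out (2 without Het high-fat replicate 1 or 3 or Het low-fat replicate 3, 3 without Het low-fat replicate 1). Over both genotypes, 7 as reported, it was 3 with the stricter filter and 6 to 8 when 1 array was left out. With the replicate number as a block, which does not pair the mice, the counts were 3 in WT, 4 in Het and 7 over both, and 0 in every genotype comparison. Genotype calls among members stayed at 0 under every alternative run, slide as a fixed block included.

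Single calls were less stable within genotypes. Without the filter Mmp13 and both Timp1 probes lost their calls in WT and the middle Timp1 probe also in Het. The upstream Timp1 probe in WT was lost in 4 of 20 alternatives and the middle probe in 6 of 20 in each genotype, with adjusted p up to 0.0893. With normexp, which shrinks values near background, the difference over both genotypes was 0.60 for Mmp8, against 1.49. Mmp8 then passed the limma test within each genotype (adjusted p = 0.0223 in Het and 0.0449 in WT). The probe was tested only through the Het high-fat group. In WT it was well above background on 1 of 3 high-fat and 0 of 3 low-fat arrays, so the WT call rests mostly on values near background.

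Signs turned only for values that had no call. Mmp9 gave 0.18 in Het and 0.070 over both with normexp, and the downstream Timp1 probe 0.013 in WT with median scaling. With 1 array left out, Mmp9 ran from -0.71 to 0.038 in WT and from -0.29 to 0.29 in Het, the Mmp14 probe A_52_P304128 from -0.030 to 0.11 in WT, and the downstream Timp1 probe from -0.24 to 0.096 in WT and from -0.058 to 0.11 over both. The genotype difference of the upstream Timp1 probe on the low-fat diet ran from -0.22 to 0.60. Median scaling put the median difference of all probes for diet in WT at 0.06, against -0.05, and gave 1236 higher and 411 lower calls over all probes, against 613 and 826.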
